A study of Mus musculus with 28 samples.

Results

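The pituitary response to acute restraint was measured in female mice that had been sleep deprived 18 h earlier. Its members were the 4 females given paradoxical sleep deprivation (PSD) and then restraint (PSD + restraint mice 1 to 4) and the 4 females given PSD and no restraint (PSD mice 1 to 4), which made 8 of the 28 mice of the series, compared across all 18059 genes tested of 32594 in the count table. They were chosen by their treatment labels, so that both groups shared the sleep loss and differed in restraint. Mice were C57BL/6J and 8 weeks old on arrival, PSD lasted 12 h and was done on small platforms in a water tank, and the pituitary was taken 18 h after its end. Restraint lasted 20 min in a Plexiglas restrainer and ended 10 min before the tissue was taken. For comparison there were 4 control and 4 restraint females without PSD, kept in home cages, and 3 PSD and 3 PSD + restraint males. All mice, controls included, had been adapted to the platforms beforehand. Each mouse gave 1 whole pituitary and 1 library of mRNA, so that fewer cells of a type and less RNA per cell cannot be told apart, and the anterior, intermediate and posterior lobes were pooled.

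Restraint activates the hypothalamic-pituitary-adrenal axis. Hypothalamic corticotropin releasing factor and vasopressin reach corticotropes of the anterior pituitary, act there through cyclic AMP, calcium and kinase cascades, and release the hormone that drives the adrenal gland to secrete corticosterone. In many cell types such signals switch on immediate early genes within minutes, without new protein synthesis, and their products are transcription factors and feedback inhibitors that shape the later response. Tissue taken soon after the stimulus shows this first wave.

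The 8 libraries held 14024465 to 52239975 counts, and the shallowest was PSD + restraint mouse 1. Genes of pituitary hormones were abundant in all 8 mice, with a sum over 7 hormone genes of 256213 to 364859 CPM (counts scaled to the library size and TMM factors). Markers of other cells lay in overlapping ranges. The sum over 6 neurointermediate lobe markers was 1757 to 4276 CPM with PSD and 1817 to 2925 CPM with PSD + restraint, and 9 macrophage markers summed to 136 to 187 and 157 to 179 CPM. A sum over 8 forebrain and olfactory markers reached 325 CPM in PSD mouse 1 and 182 CPM in PSD + restraint mouse 4, against 43.3 to 88.7 CPM in the other 6 mice. None of the marker genes of these 3 cell classes passed the test. With the neurointermediate lobe or the forebrain score as a term in the fit, 174 or 172 genes were called, against 170 without. Of those 170, 161 or 157 were still called. Without PSD mouse 1 and PSD + restraint mouse 4, a setting added after the data were seen, 84 of the 170 were still called.

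Among the genes called after PSD, more were higher with restraint than lower. Genes were called at a p of at most 0.05 from edgeR's quasi-likelihood test, adjusted by the Benjamini-Hochberg method, if they also differed by 0.32 or more on the log2 scale, which 170 of 18059 genes did (0.941%). Of these, 147 were higher with PSD + restraint (0.814%) and 23 lower (0.127%). The higher genes had a median log2 fold change of 0.86 and reached 5.02, and 62 of them at least doubled. The lower genes had a median of -0.51, and 2 of 23 fell below the value of -1. Over all genes tested the median log2 fold change was -0.01. At an unadjusted p under 0.05 in the same test, 918 genes were higher and 987 lower, so the excess of higher genes was limited to the called ones. In 169 of the 170 called genes the 4 PSD + restraint mice lay on one side of the 4 PSD mice, which held for 1421 of all genes tested (7.87%). The volcano plot shows both sides. Another 36 genes had log2 fold changes of -2 or lower and were not called, and 13 of them were highest of the 8 mice in PSD mouse 1. At log2 2 or above there were 26 genes, of which 17 were called.

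**Figure D1:**
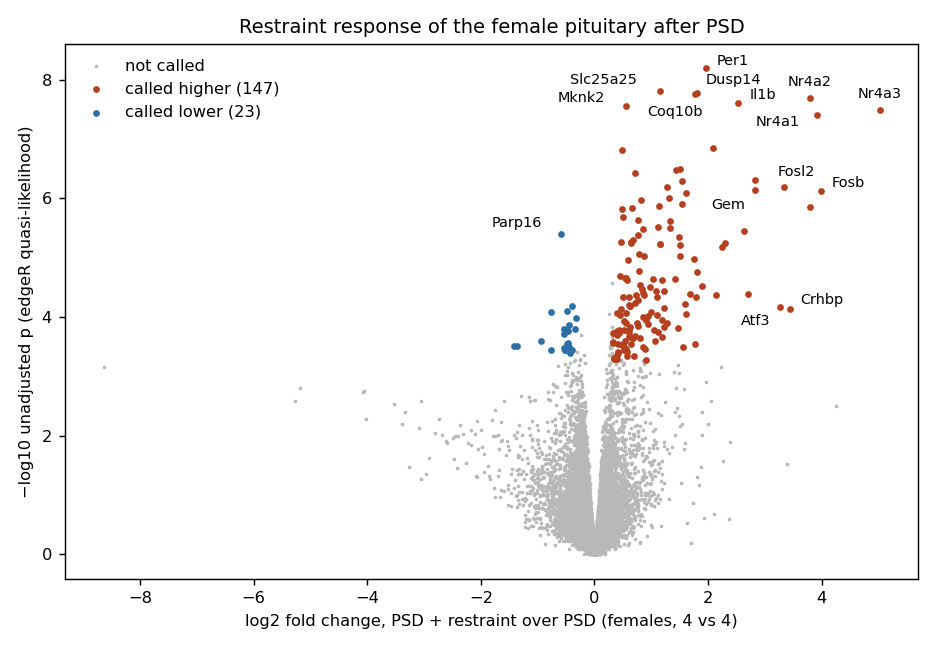
Each point is 1 of 18059 genes, with the log2 fold change of PSD + restraint over PSD in females on the x axis and the negative log10 of the unadjusted p of edgeR on the y axis. Red points are the 147 genes called higher, blue points the 23 called lower, and the called genes lie mostly on the right, with Nr4a3 farthest out at 5.02.

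One mouse often stood highest. In 114 of the 147 higher genes the highest of the PSD + restraint mice was mouse 1, while mice 2, 3 and 4 were highest in 7, 13 and 13 genes. Mouse 2 was lowest in 73 of them and mouse 4 in 52. Without PSD + restraint mouse 1 the count of called genes was 88, of which 86 were higher, and without PSD mouse 3 it was 98. Without PSD mouse 2, 96 of the 170 genes were still called. No called gene changed sign when any 1 of the 8 mice was left out. In 169 of the 170 the groups did not overlap, so leaving out 1 mouse could hardly turn the sign.

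The 12 genes that led the higher side by p, among those whose groups did not overlap, were Per1, Slc25a25, Dusp14, Coq10b, Nr4a2, Il1b, Mknk2, Nr4a3, Nr4a1, Sik1, Clk1 and Csrnp1. Each of these 12 was called with any 1 of the 8 mice left out. They were picked for the smallest p in these same mice, so this was likely from the start. Nr4a1, Nr4a2 and Nr4a3 make up a whole family, the NR4A orphan nuclear receptors, which bind DNA without a ligand and are induced by cyclic AMP and by stress hormones of the hypothalamus. All 3 NR4A receptors were called higher, with a median log2 fold change of 3.92. Beside this and every later list, 0.814% of all genes tested were called higher and 0.127% lower. All lists were drawn up with earlier results of these data known.

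Nr4a1 (Nur77, chr15:101254269-101274795 of GRCm38, plus strand), which acts on the Pomc promoter in corticotropes, was at 34.9, 92.3, 58.6 and 53.5 CPM in PSD mice 1 to 4 and at 1255, 853, 929 and 574 CPM in PSD + restraint mice 1 to 4. Every restrained mouse was above every unrestrained one, and the fold was 15.1 (log2 3.92 ± 0.40 SE, adjusted p = 7.96e-05). Nr4a2 (Nurr1, chr2:57106830-57124003, minus strand) went from 25.6, 40.6, 26.9 and 23.2 CPM to 683, 279.8, 375 and 259 CPM (13.8-fold, log2 3.79 ± 0.37, adjusted p = 7.03e-05). Nr4a3 (Nor1, chr4:48045153-48086447, plus strand) had the largest change of all called genes. It lay between 1.64 and 1.87 CPM in the 4 PSD mice and at 114, 36.1, 42.8 and 38.5 CPM in the PSD + restraint mice, a 32.4-fold difference (log2 5.02 ± 0.51, adjusted p = 7.34e-05). Mouse 1 was the highest of the restrained mice for each receptor.

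Promoters of these genes are shown because they share a short motif, the core of the cyclic AMP response element (CRE), to which CREB and related factors bind. The windows are from RefSeq on GRCm38.p6, end at the base before an annotated start, and run 5′ to 3′ on the strand of the gene, with capitals marking TGACG or its reverse complement CGTCA. Nr4a1 is chr15:101266596-101266845, Nr4a2 is chr2:57124004-57124253, Nr4a3 is chr4:48045055-48045152 (98 bases, cut where a longer annotated transcript begins), Coq10b is chr1:55052520-55052769 and Slc25a25 is chr2:32424067-32424316, before the innermost of 3 starts. The Coq10b window overlaps an exon of E330011M16Rik on the other strand, and the remaining ones overlap no annotated exon. The Slc25a25 window was chosen for its match, and the windows before the other starts of that gene held none.
Nr4a1: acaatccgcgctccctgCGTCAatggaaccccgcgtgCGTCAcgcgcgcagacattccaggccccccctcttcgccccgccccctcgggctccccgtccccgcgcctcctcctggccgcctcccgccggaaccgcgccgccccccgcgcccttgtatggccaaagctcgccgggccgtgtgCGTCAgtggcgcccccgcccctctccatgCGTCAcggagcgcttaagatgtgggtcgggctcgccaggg
Nr4a2: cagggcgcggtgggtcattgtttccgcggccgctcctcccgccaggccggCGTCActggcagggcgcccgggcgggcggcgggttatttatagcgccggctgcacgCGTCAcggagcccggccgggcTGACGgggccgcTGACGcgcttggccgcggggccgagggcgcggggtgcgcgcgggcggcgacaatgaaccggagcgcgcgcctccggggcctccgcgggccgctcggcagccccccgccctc
Nr4a3: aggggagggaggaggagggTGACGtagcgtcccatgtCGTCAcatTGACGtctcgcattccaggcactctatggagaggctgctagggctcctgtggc
Coq10b: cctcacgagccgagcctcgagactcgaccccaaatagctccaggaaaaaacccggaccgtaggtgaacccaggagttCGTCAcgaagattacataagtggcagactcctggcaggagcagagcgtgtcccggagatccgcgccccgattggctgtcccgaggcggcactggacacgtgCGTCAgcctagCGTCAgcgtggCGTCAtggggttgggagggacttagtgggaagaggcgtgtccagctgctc
Slc25a25: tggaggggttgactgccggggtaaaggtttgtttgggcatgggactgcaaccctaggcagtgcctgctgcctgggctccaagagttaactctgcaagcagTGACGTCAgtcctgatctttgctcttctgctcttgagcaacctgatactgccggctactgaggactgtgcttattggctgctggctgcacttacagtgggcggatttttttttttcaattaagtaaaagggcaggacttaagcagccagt

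In the full 250 base windows, Nr4a1, Nr4a2, Nr4a3 and Coq10b each held 4 matches to the core, a number set after the matches were seen. Among tested genes with a window in the RefSeq table, 40 of 12120 had a window with 4 or more (0.33%). At least 1 match stood before 7 of the 10 leading genes with a window and 52 of 93 genes called higher (55.9%). The same held for 5 of 15 called lower (33.3%), 3437 of 12120 tested (28.4%) and 5347 of all 27025 genes with a window (19.8%). The palindrome TGACGTCA, which holds the core on both strands and counts as 2 matches, stood before Slc25a25, before 8 of the 93 higher genes (8.60%) and before 350 of the tested ones (2.89%). Other motifs were rare in the windows of the 93 higher genes. AAAGGTCA, the monomer site of NR4A receptors, was found before 1 of 93 against 142 of 12120, the CArG box of SRF before 2 against 171, and the palindromic glucocorticoid response element before 0 against 2. Both strands were searched for exact letters, and a match is not evidence of binding.

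Other leading genes act in metabolism, kinase signalling and translation. Slc25a25 (chr2:32414487-32451445, minus strand), a mitochondrial ATP-magnesium carrier, was at 46.3, 54.9, 51.2 and 57.4 CPM with PSD and at 132, 106, 123 and 105 CPM with PSD + restraint (2.22-fold, log2 1.15 ± 0.11, adjusted p = 7.03e-05). Coq10b, a coenzyme Q binding protein of mitochondria, rose from 22.7 to 27.0 CPM to 70.8 to 109 CPM (3.39-fold, log2 1.76 ± 0.17). Mknk2 encodes a kinase that phosphorylates the translation factor eIF4E. Its change was small and very even, from 82.7, 86.5, 89.2 and 87.9 CPM to 127, 125, 128 and 126 CPM (1.47-fold, log2 0.55 ± 0.06, adjusted p = 7.03e-05). The plot of the 12 leading genes shows the mice of all 4 female groups. In each panel the PSD mice lay below the PSD + restraint mice, which was a condition for choosing the genes.

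**Figure D2:**
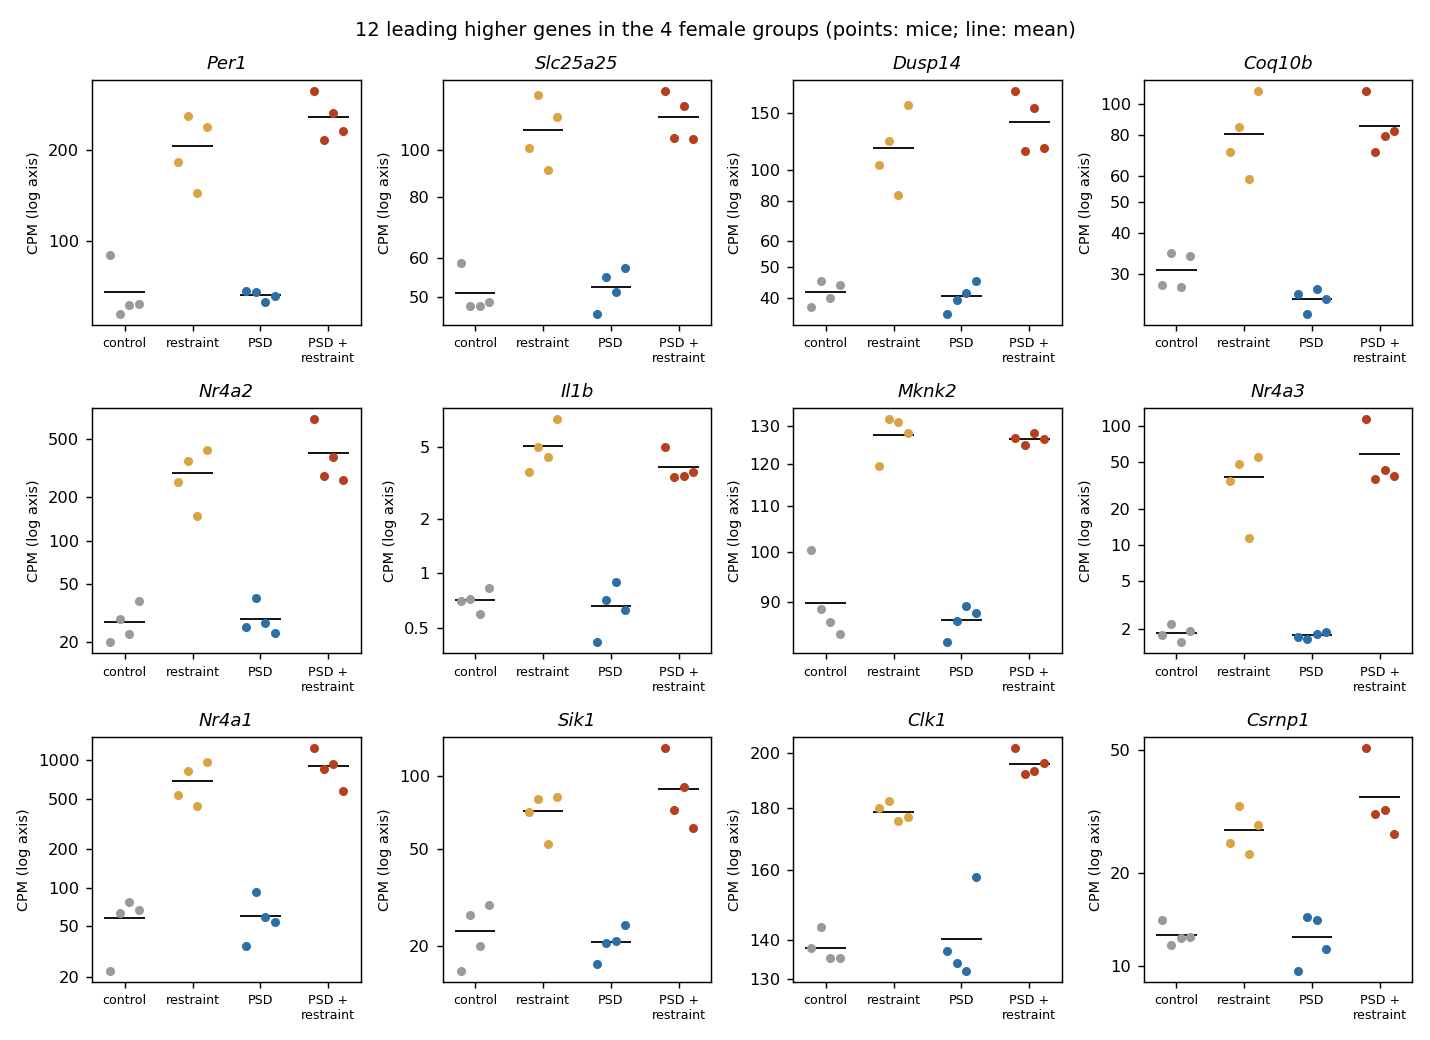
Each panel shows 1 of the 12 leading higher genes, in CPM on a log axis whose range differs between panels, for control, restraint, PSD and PSD + restraint females. Points are mice 1 to 4 from left to right and lines are means. Genes were chosen so that the 4 PSD + restraint mice lie above the 4 PSD mice, as for Nr4a1 (574 to 1255 against 34.9 to 92.3 CPM).

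Among transcription factors of the AP-1 family, which pair FOS with JUN proteins, 3 of 7 tested members were called higher and none lower. Of all genes tested 0.814% were called higher and 0.127% lower. Fosb was at 3.64, 12.3, 3.43 and 2.90 CPM with PSD and at 142, 70.6, 66.7 and 58.0 CPM with PSD + restraint (15.8-fold, log2 3.98 ± 0.51, adjusted p = 0.000671). Fosl2 went from 27.2 to 59.3 CPM to 237 to 671 CPM (10.2-fold, log2 3.34 ± 0.42, adjusted p = 0.000643). Atf3, a stress-induced repressor, was at 2.29, 2.89, 2.14 and 1.05 CPM and then at 47.1, 7.84, 15.05 and 9.30 CPM (9.66-fold, log2 3.27 ± 0.61, adjusted p = 0.014). The call of Atf3 was lost without PSD mouse 3 (log2 3.30, adjusted p = 0.053) or PSD mouse 4 (log2 2.99, adjusted p = 0.0512). Jun and Jund were not called, and Fosl1 was not tested.

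Fos itself, the best known immediate early gene, gave no difference between the groups. It was at 16.7, 224, 20.9 and 33.0 CPM with PSD and at 43.9, 201, 17.6 and 16.5 CPM with PSD + restraint, so that 1 mouse of each group stood far above its group. The log2 fold change was -0.04 ± 0.79 (adjusted p = 0.996), and it became 1.58 without PSD mouse 2 and -1.52 without PSD + restraint mouse 2, neither of which passed the test. PSD mouse 2 was also the highest PSD mouse for Junb (215 against 37.2 to 66.3 CPM), Egr1 (233 against 21.97 to 77.9), Ier2 (76.5 against 25.8 to 27.7) and Dusp1 (130.4 against 21.97 to 37.4). The log2 fold changes of these genes were 0.77 ± 0.50, 1.11 ± 0.63, -0.04 ± 0.33 and 0.98 ± 0.56, and none was called. Without PSD mouse 2 they were 1.65, 2.22, 0.51 and 1.84, and again none was called. Jun, another early gene, was also highest in PSD mouse 2 but within a narrow range, at 22.6 to 31.2 CPM in the PSD mice and 16.4 to 22.7 CPM in the PSD + restraint mice (log2 -0.44 ± 0.23).

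**Figure D3:**
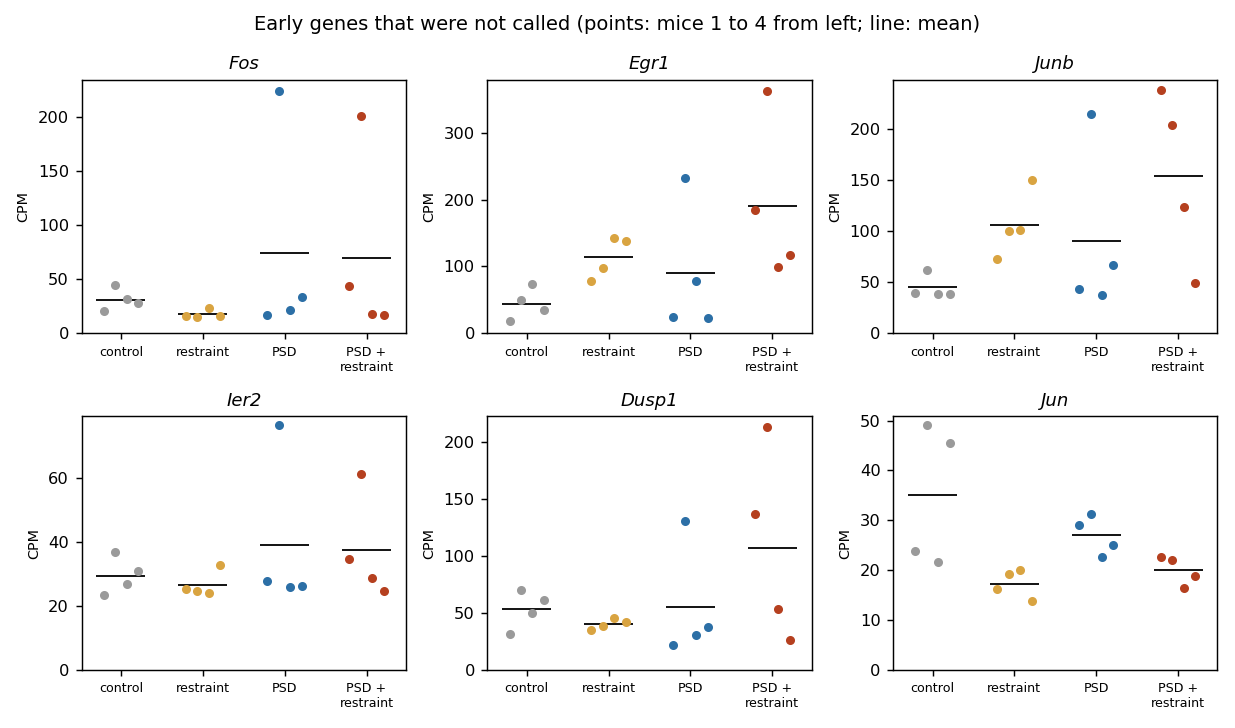
Expression in CPM of Fos, Egr1, Junb, Ier2, Dusp1 and Jun in control, restraint, PSD and PSD + restraint females, with points for mice 1 to 4 from left to right and lines at the means. The second PSD mouse stands above the other 3 in every panel, for Fos at 224 against 16.7 to 33.0 CPM, and in Fos, Egr1, Ier2 and Dusp1 so does the second PSD + restraint mouse.

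The EGR zinc finger factors and their partners had 4 of 8 members called higher, against 0.814% of all genes tested. All 8 log2 fold changes were above 0, with a median of 1.12. Egr3 rose from 3.27, 2.46, 2.84 and 1.60 CPM to 17.2, 9.81, 8.44 and 12.5 CPM (4.77-fold, log2 2.25 ± 0.34, adjusted p = 0.00252). Egr4 rose 3.36-fold (log2 1.75 ± 0.28, adjusted p = 0.00376). The other called members were Nab2, a corepressor of EGR proteins (log2 0.71 ± 0.15, adjusted p = 0.0277), and Srf, a factor that drives many early genes (log2 0.42 ± 0.09, adjusted p = 0.0343), and their calls were lost with 5 and 7 of the 8 mice left out in turn. Egr2 did not overlap between the groups, at 1.75 to 3.17 and 3.69 to 6.998 CPM, but missed the threshold (adjusted p = 0.161). Of 12 other early factors 3 were called higher. They were Csrnp1, a nuclear protein induced by AXIN1 (2.83-fold, log2 1.499 ± 0.18), and the Krüppel-like factors Klf4 (2.41-fold) and Klf2 (1.80-fold). Klf4 and Klf2 each lost the call with 3 of the 8 mice left out in turn, which were PSD mice 2, 3 and 4 for Klf4 (log2 1.30, 1.24 and 1.21) and PSD mouse 2, PSD mouse 3 and PSD + restraint mouse 1 for Klf2 (log2 0.82, 0.86 and 0.73).

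Of 11 genes that feed back on cyclic AMP signalling 5 were called higher and none lower, against 0.814% and 0.127% of all genes tested. Sik1, a salt-inducible kinase that restrains CREB coactivators, was at 16.9, 20.5, 20.9 and 24.3 CPM with PSD and at 131, 72.2, 89.7 and 61.0 CPM with PSD + restraint (4.26-fold, log2 2.09 ± 0.24, adjusted p = 0.000251). Crem, whose short product is the inducible repressor ICER, went from 34.1 to 54.3 CPM to 87.7 to 138 CPM (2.50-fold, log2 1.32 ± 0.19, adjusted p = 0.00142). Gem, a small GTP-binding protein that limits calcium channel activity, rose 7.07-fold (log2 2.82 ± 0.36, adjusted p = 0.000671), from 6.29 to 9.004 CPM to 26.9 to 103.7 CPM. Nfil3, a bZIP repressor, and Rgs2, which dampens G protein signalling, rose 2.80-fold and 1.93-fold. The Rgs2 call was lost without PSD mouse 1, PSD mouse 3 or PSD + restraint mouse 1, at log2 0.87, 0.94 and 0.87. Of the phosphodiesterases that break down cyclic AMP none was called, and their log2 fold changes were between -0.06 (Pde4c) and 0.46 (Pde4b).

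Feedback on MAP kinases was led by 1 phosphatase. Dusp14 was at 35.7, 39.5, 41.4 and 45.1 CPM with PSD and at 176, 115, 156 and 117 CPM with PSD + restraint (3.48-fold, log2 1.80 ± 0.17, adjusted p = 7.03e-05). Errfi1, an inhibitor of the EGF receptor, was the other called member of 15, at 17.5, 20.1, 20.4 and 19.4 CPM and then 109.6, 39.2, 66.0 and 35.9 CPM (3.22-fold, log2 1.69 ± 0.30, adjusted p = 0.0104). Dusp5 came close, at 2.37 to 3.64 and 4.94 to 6.86 CPM (log2 0.86 ± 0.20, adjusted p = 0.0504). The sprouty and SPRED inhibitors had log2 fold changes from -0.16 to 0.41 and no call.

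Of 6 acute metabolic and adaptor genes 5 were called higher, and all 6 had groups that did not overlap, against 0.814% called higher and 7.87% not overlapping among all genes tested. Besides Slc25a25 they were B3galt2, a galactosyltransferase (2.89-fold, log2 1.53 ± 0.20), Midn, which directs nuclear proteins to the proteasome (2.50-fold, log2 1.32 ± 0.19), Fam212b (1.97-fold) and Sertad1, a cell cycle adaptor (1.48-fold). The Sertad1 call had an adjusted p of 0.045 and was lost with 6 of the 8 mice left out in turn. The plot by gene list shows where these genes stand beside the other lists, with 38 of 168 tested list genes called higher and 0 called lower. Over all genes tested these shares were 0.814% and 0.127%, and the lists were drawn up with earlier results of these data known.

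**Figure D4:**
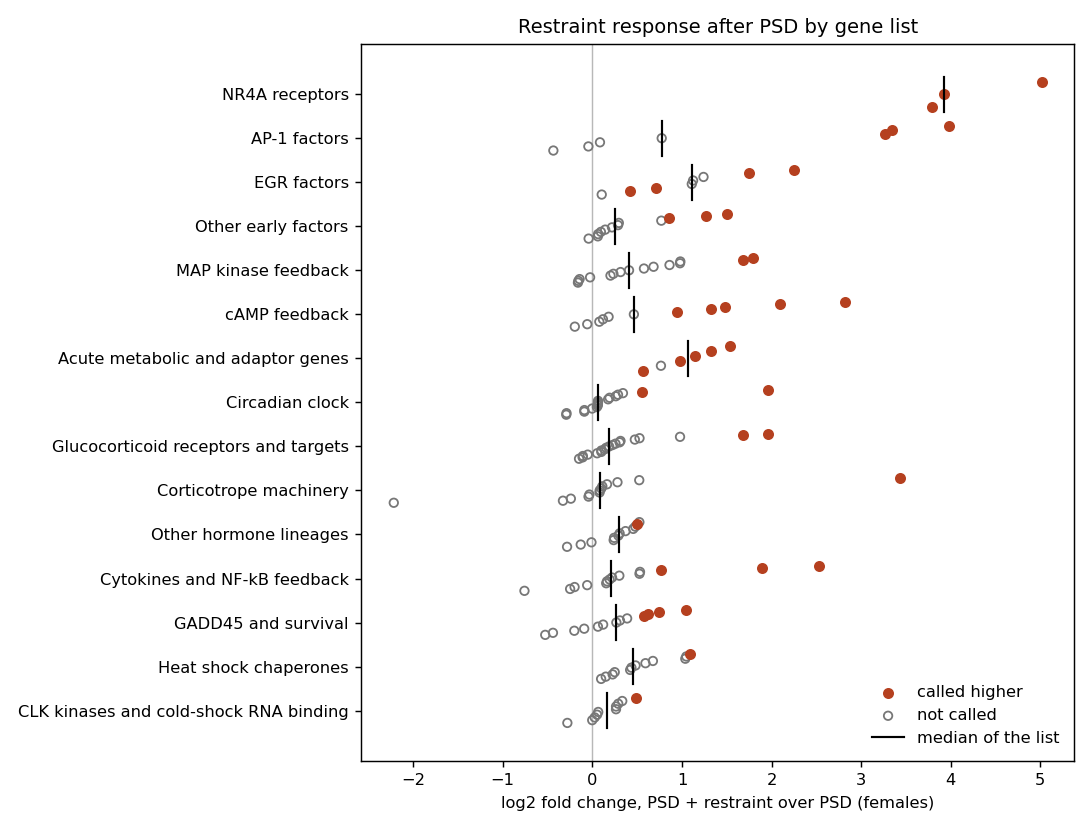
The log2 fold change of PSD + restraint over PSD in females for the tested members of 15 gene lists, with filled points for genes called higher, open points for genes not called and black bars at the list medians. The median of the 3 NR4A receptors is at 3.92. The medians of the 17 clock genes and of the 13 genes listed as corticotrope machinery are at 0.06 and 0.08.

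The circadian clock was represented by 2 called genes of 17, against 0.941% of all genes tested. Per1, a clock repressor that also responds to cyclic AMP and to glucocorticoids, had the smallest p of all genes. It was at 68.0, 67.4, 62.7 and 65.4 CPM with PSD and at 314, 216, 266 and 231 CPM with PSD + restraint (3.90-fold, log2 1.97 ± 0.18, adjusted p = 7.03e-05). Cry2, a partner of the PER proteins, was at 65.8, 61.0, 53.7 and 56.3 CPM and then 89.7, 78.9, 93.8 and 86.2 CPM (1.47-fold, log2 0.56 ± 0.09, adjusted p = 0.00698). Per2 (log2 0.26 ± 0.14), Arntl (0.06 ± 0.14) and Nr1d1 (-0.29 ± 0.14) were not called.

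Glucocorticoid receptors and targets had 2 of 19 members called, against 0.941% of all genes tested. They were Per1 and Errfi1, which are also on the lists above. The glucocorticoid receptor Nr3c1 was at 57.2 to 81.6 CPM with PSD and at 69.9 to 73.6 CPM with PSD + restraint (log2 0.10 ± 0.11), and the mineralocorticoid receptor Nr3c2 gave -0.05 ± 0.13. Tsc22d3 (GILZ) did not overlap between the groups, at 43.7 to 52.2 and 60.2 to 71.2 CPM, with an adjusted p of 0.311 (log2 0.47 ± 0.18). Fkbp5, a target and brake of the receptor, was at 38.3 to 54.5 and 37.5 to 46.2 CPM (log2 -0.11 ± 0.16), and Sgk1 gave 0.30 ± 0.18.

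Of 13 genes on the list named corticotrope machinery 1 was called, against 0.941% of all genes tested. RNA of the whole pituitary does not show which cells held it. Crhbp, the binding protein that sequesters corticotropin releasing factor, was at 22.5, 4.69, 11.3 and 23.6 CPM with PSD and at 174, 59.5, 223 and 226 CPM with PSD + restraint (10.8-fold, log2 3.44 ± 0.65, adjusted p = 0.0149). The lowest restrained mouse was 59.5 CPM against 23.6 in the highest unrestrained one. Control females without PSD were at 84.9, 102.5, 56.8 and 164 CPM, so that the PSD mice lay below the controls and the PSD + restraint mice partly within their range. The difference of PSD from control, which uses the same PSD mice, was log2 -2.69 with an adjusted p of 0.108, and the Crhbp call was lost without PSD mouse 2 (log2 3.15, adjusted p = 0.0526) or PSD mouse 3 (log2 3.31, adjusted p = 0.0638). Pomc, the precursor of the hormone that corticotropes release, was at 84475, 164445, 108347 and 70260.1 CPM and then 101425, 93727, 74328 and 70509 CPM (log2 -0.33 ± 0.29, adjusted p = 0.799). The receptor gene Crhr1 gave 0.16 ± 0.16 and the prohormone convertase gene Pcsk2 gave -0.24 ± 0.28. Both Pomc and Pcsk2 are also abundant in the intermediate lobe, and Pcsk2 is 1 of the 6 neurointermediate lobe markers summed above.

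Among 12 genes of the other hormone lineages Cga alone was called. Cga encodes the alpha subunit shared by thyrotropin and the gonadotropins, and it was at 2051, 1825, 1944 and 1836 CPM with PSD and at 2618, 2564, 2948 and 2659 CPM with PSD + restraint (1.41-fold, log2 0.50 ± 0.11, adjusted p = 0.0343). Its call was lost when any 1 of the 8 mice was left out, with log2 values of 0.45 to 0.53. The control females were at 2681 to 3736 CPM, above the PSD mice, and the difference of PSD from control was log2 -0.76 (adjusted p = 0.0257). Restraint females without PSD were at 2938 to 3899 CPM, with a mean of 3238 against 3253 CPM in controls. Lhb, the beta subunit of luteinizing hormone, was at 423, 322.5, 350.0 and 272 CPM and then 413, 493, 574 and 484.5 CPM (log2 0.52 ± 0.12, adjusted p = 0.0546). Without PSD mouse 1 it was called (log2 0.64, adjusted p = 0.0172). Control and restraint females, which had no PSD, had Lhb means of 480 and 499 CPM. Gh and Prl gave log2 fold changes of -0.01 ± 0.21 and 0.29 ± 0.18.

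Cytokine and NF-kB feedback genes had 3 called of 14 tested, against 0.941% of all genes tested. Il1b, which encodes interleukin 1 beta, was low but clearly separated, at 0.416, 0.710, 0.895 and 0.624 CPM with PSD and at 4.99, 3.40, 3.44 and 3.63 CPM with PSD + restraint (5.79-fold, log2 2.53 ± 0.25, adjusted p = 7.03e-05). Ptgs2, the inducible cyclooxygenase, rose 3.71-fold (log2 1.89 ± 0.33, adjusted p = 0.00845), from 0.249 to 0.6005 CPM to 1.23 to 2.61 CPM. Nfkbiz, a nuclear regulator of NF-kB, rose 1.70-fold (log2 0.76 ± 0.15, adjusted p = 0.0232) and lost the call without PSD mouse 1, PSD mouse 3 or PSD + restraint mouse 1 (log2 0.72, 0.70 and 0.59). Il1a, Lif, Ccl2 and Ccl4 were not called, with log2 fold changes from -0.76 to 0.19. Macrophage markers, given above, summed to overlapping ranges in the groups.

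Of 13 GADD45 and survival genes 4 were called higher, against 0.814% of all genes tested. Gadd45b, a growth arrest gene, went from 16.8 to 28.4 CPM to 33.8 to 61.0 CPM (2.06-fold, log2 1.05 ± 0.21, adjusted p = 0.0252). Bcl2l11 (BIM), which promotes cell death, Trib1, a pseudokinase, and Pim3, a survival kinase, had log2 fold changes of 0.63, 0.74 and 0.58. These 4 calls were lost with 5, 5, 4 and 6 of the 8 mice left out in turn, and without PSD + restraint mouse 1 the list held 0 calls. Heat shock chaperones had 1 called gene of 12, the cochaperone Bag3 (2.13-fold, log2 1.09 ± 0.21, adjusted p = 0.0168), whose call was lost without PSD mouse 2, PSD mouse 3 or PSD + restraint mouse 1 (log2 1.07, 1.08 and 0.90). All 12 had log2 fold changes above 0 and 10 did not overlap between the groups, against 7.87% of all genes. The near-identical genes Hspa1a and Hspa1b, which can share reads, gave 1.04 ± 0.34 and 1.05 ± 0.37 and were not called.

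Clk1, a kinase of splicing factors that regulates its own splicing, rose from 137, 134, 132 and 158 CPM to 202, 192, 193 and 196 CPM (1.40-fold, log2 0.48 ± 0.05, adjusted p = 0.000251). It was the 1 called member of 10 on a list of CLK kinases and RNA binding proteins. Clk4 passed the test of significance below the fold limit, at 76.6 to 88.3 and 93.9 to 102.3 CPM (log2 0.26 ± 0.05, adjusted p = 0.0167).

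The 23 lower genes changed less and were less abundant than the higher ones, with a median average log2 CPM of 3.23 against 4.89, where all tested genes had 3.89. Parp16, an ADP-ribosyltransferase of the endoplasmic reticulum, led them. It was at 10.8, 12.2, 10.8 and 11.5 CPM with PSD and at 7.01, 7.96, 7.40 and 7.43 CPM with PSD + restraint (1.51-fold lower, log2 -0.60 ± 0.09, adjusted p = 0.00198), and it was called with any 1 of the 8 mice left out. Rgs16, an inhibitor of G protein signalling, was at 35.0, 39.9, 40.6 and 42.4 CPM and then 28.6, 30.9, 27.7 and 25.7 CPM (1.39-fold lower, log2 -0.48 ± 0.09, adjusted p = 0.0157). Tfap4, a helix-loop-helix factor, was 1.69-fold lower (log2 -0.76 ± 0.14, adjusted p = 0.0163), at 6.62 to 8.78 against 3.88 to 5.06 CPM. Tssk6, a serine kinase, was 1.93-fold lower (log2 -0.95 ± 0.20, adjusted p = 0.032) at about 1 to 2 CPM. The other leading lower genes were Ska2, Zfp787, Jrk, 5730409E04Rik, Amer3, Shpk, BC049150 and Kctd7, with log2 fold changes from -0.33 to -0.54. Apart from Parp16, each of the 12 lost the call with 2 to 7 of the 8 mice left out in turn. Symbols that begin with Zfp, zinc finger proteins, made up 5 of the 23 lower genes and 2 of the 147 higher ones, against 351 of 18059 tested (1.94%).

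Whether sleep loss changed the restraint response was asked by setting the same contrast in females without PSD beside it, from 8 other mice. Restraint over control called 98 genes without PSD (0.543%), 87 higher and 11 lower. Called in both were 79 genes, all in the same direction, which was 46.5% of the calls after PSD and 80.6% of those without it. Of the 91 genes called after PSD alone, 90 had the same sign without PSD, 79 of them at an unadjusted p under 0.05. The 19 genes called without PSD alone all had the same sign after PSD. Over the 189 genes called in either contrast Pearson's r of the log2 fold changes was 0.93. These genes were picked by the same changes, which can raise r. Over all tested genes, which are not independent replicates, r was 0.30.

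Nr4a1 reached 441.2 to 971 CPM in restraint mice from 22.3 to 76.6 CPM in controls, and Per1 reached 144 to 260.3 CPM from 57.2 to 89.95 CPM. Their log2 fold changes without PSD were 3.61 and 1.62, against 3.92 and 1.97 after PSD. Il1b and Egr3 had the larger value without PSD, 2.82 against 2.53 and 3.03 against 2.25. Of the 147 genes higher after PSD, which were picked on that contrast, 124 had the larger log2 fold change after PSD (median 0.86 against 0.63). Among the 87 genes higher without PSD, picked on the other contrast, 52 had the larger change after PSD (median 0.98 against 1.02).

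The difference of the 2 responses, tested as an interaction, called 0 of 18059 genes in edgeR (0%) and 0 in DESeq2. The smallest adjusted p in edgeR was 0.961. An unadjusted p under 0.05 was reached by 766 of 18059 genes, a smaller share than the 0.05 that chance alone would give. For Nr4a3 the interaction was 0.66 ± 0.69 on the log2 scale, for Per1 0.35 ± 0.24, for Fosl2 1.02 ± 0.55 and for Crhbp 1.69 ± 0.84. The 3 genes with the smallest p were Cep126, AK134717 and 4930555G01Rik. Cep126, a centrosomal protein, was at 14.2, 14.5, 15.1 and 15.03 CPM with PSD and 15.7, 16.7, 16.2 and 16.1 CPM with PSD + restraint, and at 17.6 to 19.8 CPM in controls and 14.3 to 15.5 CPM in restraint mice. Its groups separated in opposite directions in the 2 contrasts, which 3 genes showed, while 266 separated in the same direction (interaction 0.43 ± 0.08 on the log2 scale, adjusted p = 0.961).

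**Figure D5:**
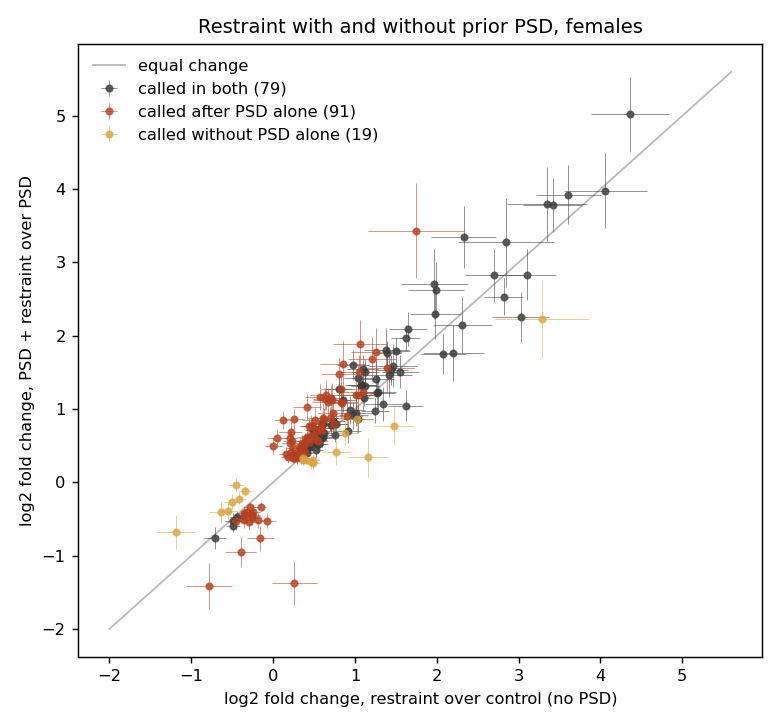
Log2 fold change of restraint over control without PSD (x axis) and of PSD + restraint over PSD (y axis) in females for the 189 genes called in either contrast, with bars of 1 standard error. Dark points are the 79 genes called in both, red the 91 called after PSD alone and yellow the 19 called without PSD alone. The grey line marks equal change. Pearson's r was 0.93 over these genes, which were picked by the changes plotted, and 0.30 over all tested genes.

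In males the same contrast, with 3 against 3 mice, called 53 of 18936 genes (0.28%), 50 higher and 3 lower. Of the 147 genes higher in females 144 had a log2 fold change above 0 in males, with a median of 0.60, and 21 of the 23 lower genes were below 0. Both sexes called 35 genes, which was 20.6% of the female and 66.0% of the male calls. The female calls came from the fit of females alone, and the male calls from a fit of all 28 mice. In that fit of all mice the female contrast called 240 genes. Nr4a1 was at 172, 84.1 and 471 CPM in PSD males and at 799, 1045 and 815 CPM in PSD + restraint males (log2 1.87), and the PSD males varied more than the PSD females. Crhbp, called in females, was at 0.179 to 0.333 CPM and 0.401 to 1.24 CPM in the males. A test of the difference between the sexes called 0 of 18936 genes in edgeR (0%) and 0 in DESeq2. In edgeR the smallest adjusted p was 0.961, and 872 genes had an unadjusted p under 0.05. That was a smaller share of the 18936 than the 0.05 that chance alone would give. Ier3 and Gpr84 were among the genes with the smallest p. Ier3, an early response gene, was at 3.72 to 5.40 and 3.90 to 7.53 CPM in females and at 2.60 to 3.36 and 6.67 to 10.9 CPM in males (female minus male log2 -1.26 ± 0.28, adjusted p = 0.961).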

How the data were processed

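Pituitary mRNA of 28 mice was sequenced with stranded libraries and paired-end reads. The authors aligned the reads to mm10 with MapSplice and deposited counts per gene from HTSeq 0.9.1, without normalization, and a second deposited table of normalized values was not used here. Whether the counting used strand is not given in the sources used here, so that overlapping and antisense genes are uncertain. Groups came from the sample labels, and each mouse is 1 library. P-values rest on the spread between mice within groups, pooled over the groups of a fit. The paper housed mice by sex in shared cages and deprived cage mates together in a tank. The labels give neither cage nor tank, so whether mice of a group shared them is not known.

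Counts were analysed in R 4.3.3 with edgeR 4.0.16: genes kept by filterByExpr, TMM factors, 1 mean per group over all 16 females, and glmQLFTest with Benjamini-Hochberg adjustment over all 18059 genes. Male and sex contrasts came from a fit of all 28 mice. Standard errors, given after ±, were worked back as the absolute log2 fold change over the square root of the F of glmQLFTest. Genes were called at an adjusted p of at most 0.05 and a change of 0.32 or more on the log2 scale. The study set the same limits in DESeq2, on shrunken fold changes and with a TPM filter. The scripts were tested on simulated data. Named genes were the 12 called genes with the smallest p in each direction whose groups did not overlap in CPM, members of fixed lists, the 3 genes with the smallest p for the interaction and for the sex difference, and 6 genes the study measured by PCR. Of these, 1 gene is not reported here. The members and lists were chosen with earlier results of these data known. Alternatives were DESeq2 1.42.0, other scaling and filters, other sets of mice, marker scores as terms, and each mouse left out. Depth was 14024465 to 52239975 counts in the 8 mice. Positions were taken from GENCODE M21 (GRCm38), and promoters from RefSeq, matched by symbol.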

Additional observations from a re-analysis of the deposited data

Results flagged for a closer look

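In 20 of 176 pairs of a gene and a group, 1 mouse stood apart from the other 3 by Dixon's 95% limit, which chance passes in about 1 of 20 groups. PSD mouse 2 was the high one for Fos (224 CPM), Junb (215 CPM), Ier2 (76.5 CPM), Dusp1 (130.4 CPM), Fosb (12.3 CPM), Tsc22d3 (52.2 CPM) and Jrk (14.4 CPM). PSD + restraint mouse 1 was the high one for Nr4a3 (114 CPM), Fosb (142 CPM), Klf4 (13.6 CPM), Dusp5 (6.86 CPM) and Il1b (4.99 CPM), and it had the fewest counts of the 8 libraries. PSD + restraint mouse 2 was high for Fos (201 CPM), Fshb (633 CPM) and AK134717 (4.38 CPM). PSD mouse 4 was high for Gh (121635 CPM) and Prl (170264 CPM) and low for Fam212b (23.7 CPM). Ska2 was high in PSD mouse 3 (16.3 CPM), and Nr3c1 was low in PSD + restraint mouse 4 (69.9 CPM).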

How the results depend on the processing

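In 20 other settings no gene of the 170 that was tested there changed sign. The groups of 169 of them did not overlap, so such a change was unlikely from the start. DESeq2 called 290 genes after PSD in females (220 higher and 70 lower), 168 of the 170 among them, 207 without PSD and 152 in males. Higher genes were 86.5% of calls, 75.9% in DESeq2, and 74.2% in 1 fit of all mice (178 higher and 62 lower). With 1 mouse left out, 88 to 157 genes were called. Without PSD mouse 1 and PSD + restraint mouse 4, which had the most forebrain marker RNA, a setting added after the data were seen, 87 were called. The remaining settings gave 130 to 240, with 188 at any fold change. The interaction had 0 calls in the 20 settings it was run in, and the sex difference 0 in the 5 it was run in. Replicate numbers did not pair the mice (correlations of deviations -0.364 to 0.108), and a replicate block called 130 genes.

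Of the named genes, 18 single values changed sign, none of them called. The replicate block gave Fos 0.0102, Ier2 0.000296 and Gh 0.0332. The neurointermediate lobe score as a term gave Fos 0.111 and Gh 0.0681, and the forebrain score gave Fos 0.0630. With 1 mouse left out, Fos ranged from -1.52 to 1.58, Ier2 from -0.40 to 0.51, Gh from -0.11 to 0.27, Nr3c2 from -0.14 to 0.0658 and Pcsk2 from -0.41 to 0.0741. At depths from 14024465 counts, genes of low level rest on few reads, such as Ptgs2 with 5 to 17 counts in the PSD mice.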

Other observations

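Several genes outside the lists were also called higher after restraint in PSD females, and the 4 named here were chosen after their values were seen. Mest, an imprinted gene expressed from the paternal copy, was at 340.1, 468, 385 and 454 CPM with PSD and at 1420, 1011, 1139 and 853 CPM with PSD + restraint (2.69-fold, log2 1.43 ± 0.17, adjusted p = 0.000457). Zdbf2, another imprinted gene expressed from the paternal copy, was at 50.4, 49.9, 60.4 and 65.2 CPM and then 219.7, 119, 190.4 and 132 CPM (2.92-fold, log2 1.55 ± 0.19, adjusted p = 0.000568). Mir335 (log2 1.59) and Copg2 (log2 0.45), which overlap Mest, were also called, and their reads cannot be told apart here. Neither Mest nor Zdbf2 overlapped between the groups, and both also rose without PSD, by log2 1.04 (adjusted p = 0.0086) and 1.10 (adjusted p = 0.011).

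Irs2, an adaptor of the insulin receptor, went from 25.0 to 36.4 CPM to 48.6 to 89.97 CPM (2.24-fold, log2 1.16 ± 0.18, adjusted p = 0.00236). Fam46a, a noncanonical poly(A) polymerase, went from 144 to 209 CPM to 319 to 449.6 CPM (2.199-fold, log2 1.14 ± 0.15, adjusted p = 0.000959). Both also had positive values without PSD, of log2 0.57 and 0.63, which were not called.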
